A study of Homo sapiens with 21 samples.

Results

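The genes described here belong to the signalling route from the epidermal growth factor receptor to RAS and RAF, and they are 6 of the 18322 gene names given to HNRNPK cluster regions in these data. They are *EGFR*, *SOS1*, *SOS2*, *NRAS*, *NF1* and *BRAF*, and their members are all the cluster regions that carry one of these names. There were 1657 such clusters of 778762 in all. HNRNPK, an RNA-binding protein with KH domains that is known to prefer C-rich RNA, was mapped by PAR-CLIP, in which incorporated 4-thiouridine crosslinks to the bound protein and is then read as C in place of T. The triple-negative breast cancer line MDA-MB-231 was used, either parental or after CRISPR/Cas9 knockout of *KRT19*, which encodes keratin 19, and each was split into a cytoplasmic and a nuclear fraction. The 4 libraries are called P-Cyt, KO-Cyt, P-Nuc and KO-Nuc, and 4 values given in a row follow that order. They held 453, 340, 458 and 406 of the clusters. The labels name no other difference between the groups and do not say whether the knockout line is a single clone. All cells had received 4-thiouridine, and the antibody was labelled as directed against HNRNPK/J. Each of the 4 conditions was 1 library, so no difference has a replicate check, no p-value was computed and every interval covers counting error only. The other 17 samples of the study, all RNA-seq, were not analysed here, so more bound RNA and more RNA to bind cannot be told apart.

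Growth factor binding to EGFR, a receptor tyrosine kinase, recruits SOS1 or SOS2 through an adaptor, and these exchange factors load RAS proteins such as NRAS with GTP. Loaded RAS engages RAF kinases such as BRAF and so starts the MAP kinase cascade, and neurofibromin, the product of *NF1*, returns RAS to its inactive state by promoting GTP hydrolysis. The route is known as a driver of proliferation in triple-negative breast cancer, in which EGFR is often abundant.

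Reads in clusters numbered from 3252800 in KO-Nuc to 6216226 in KO-Cyt, and levels are given as RPM, the reads of a gene scaled to a fixed total of the reads in all clusters of the library. Every deposited cluster held at least 5 reads, which is between 0.804 and 1.54 RPM. Unique sequences made up 30.9% and 45.6% of the reads in P-Cyt and KO-Cyt but 19.99% and 19.0% in the nuclear libraries. According to the study's methods, identical sequences had been collapsed before molecular identifiers were removed. Whether the remaining copies of a sequence came from independent molecules was not tested. The P-Cyt file named 25 reference sequences, whereas the other 3 files named between 77 and 86, and 21 stretches of 1 Mb held 30 or more clusters in that library but at most 3 in each other one. None of the 6 genes lay in such a gap: the longest run of neighbouring loci found only in P-Cyt was 5 loci, in *EGFR*. *VIM*, *CD44*, *AXL* and *CAV1*, markers of this line, had reads in each library. Of the luminal markers, *PGR* had none, and *GATA3* and *FOXA1* had at most 15 and 11 reads in a library. Each library had reads of *ESR1* (between 4.18 and 21.8 RPM), *KRT8* (20.3 to 58.8 RPM) and *KRT18* (5.23 to 31.7 RPM). In P-Nuc and KO-Nuc *KRT8* was above *VIM*, at 58.8 and 35.97 against 47.2 and 21.2 RPM. It was below *VIM* in P-Cyt and KO-Cyt, at 26.1 and 20.3 against 37.3 and 45.4 RPM. *KRT19* itself had 7, 5, 0 and 0 reads, too few to check the knockout. The nuclear RNAs *NEAT1*, at 226.4, 204, 789 and 1092 RPM, and *KCNQ1OT1*, at 22.5, 57.4, 45.5 and 167 RPM, were higher in the nucleus of each cell line. *MALAT1*, also a nuclear RNA, was at 1229, 842, 888 and 548 RPM and so higher in the cytoplasm of each cell line. The part of nuclear RNA in the cytoplasmic values was not tested.

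Clusters of different libraries that shared 1 nt or more of the same strand were joined into loci, and 1136 loci carried the name of 1 of the 6 genes. The sequences shown are from 3'UTR and intronic loci with many reads in each gene, with the further *NRAS* 3'UTR sites that the results turn on. Each is the 30 nt of GRCh37 (hg19) around the position with the highest cluster signal, written 5' to 3' on the strand of the transcript, with capitals where 3 or more C stand in a row.
EGFR 3'UTR site, chr7:55275765-55275794, plus strand: caaaagctattctagctttcttcttcatat
EGFR intron 8 site, chr7:55223707-55223736, plus strand: tccaaaggaacacatcttcctcttctcatt
SOS1 3'UTR site, chr2:39209967-39209996, minus strand: ttaaaggtttttttCCCtccataaatcaaa
SOS1 intron 20 site, chr2:39221864-39221893, minus strand: tattatacaggctgaatatCCCtcatccaa
SOS2 3'UTR site, chr14:50584943-50584972, minus strand: tttttacaaataatgctcttacaaaaatgc
SOS2 intron 12 site, chr14:50623262-50623291, minus strand: agttctagCCCttttCCCacttatctctca
NRAS 3'UTR site a, chr1:115249760-115249789, minus strand: actacctatacaatgtatgtaatttgtttc
NRAS 3'UTR site b, chr1:115248105-115248134, minus strand: gaattctagtttacctcaaaatccttctct
NRAS 3'UTR site c, chr1:115249526-115249555, minus strand: atgatgtatataattgccttcaatCCCCtt
NRAS 3'UTR site d, chr1:115250183-115250212, minus strand: ttgtttataatgttatcggctctattctct
NF1 3'UTR site, chr17:29702270-29702299, plus strand: tattttgaatgtcttttaatcttcctcctc
BRAF intron 1 site, chr7:140614481-140614510, minus strand: atggaggtgacttaattCCCatcataaaaa

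*EGFR*, which spans 192.6 kb of chromosome 7 (GRCh37 chr7:55086710-55279321, plus strand), carried 470 of the 1136 loci. With 24.4 loci per 10 kb of gene it stood at the 98.6th percentile of 12638 protein-coding genes, whose median was 4.46 per 10 kb. It gave 6863, 5006, 5732 and 5090 reads, or 1236, 805, 1620.3 and 1565 RPM. The nuclear libraries were thus close to each other, and KO-Cyt was the lowest. Introns held most of these reads, and 325 of the 423 loci placed in introns of the canonical transcript lay in intron 1, a share of 76.8% (95% Wilson interval 72.6 to 80.6%). That intron makes up 67.3% of the intronic length. Per length, *EGFR* had the highest intronic level of the 6 genes in each library, between 2.23 RPM per kb in KO-Cyt and 7.80 RPM per kb in P-Nuc.

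**Figure D1:**
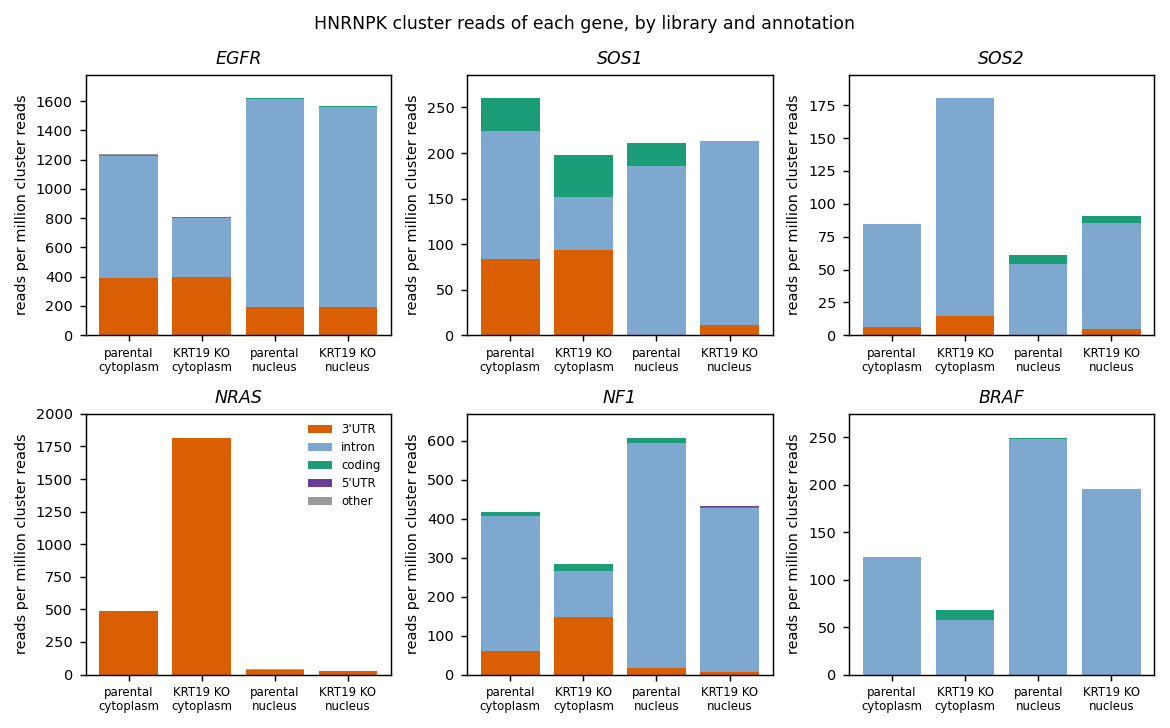
HNRNPK cluster reads of each gene in RPM (y axis, linear from 0, a scale of its own for each gene) in the 4 libraries (x axis, 1 library per bar), stacked by the deposited annotation class. *NRAS* reads were nearly all in the 3'UTR and highest in KO-Cyt (1819 RPM), *BRAF* reads were mostly intronic, and the 3'UTR part of *EGFR*, *SOS1* and *NF1* was larger in the cytoplasmic than in the nuclear libraries.

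The 3'UTR of *EGFR* held 2191, 2454, 675 and 629 reads, or 395, 395, 191 and 193 RPM, the same in both cytoplasmic libraries. The ratio of KO to P was 0.00 on the log2 scale in the cytoplasm (95% interval -0.08 to 0.08) and 0.02 in the nucleus (-0.14 to 0.18). The same gene's intronic reads were lower in KO-Cyt than in P-Cyt, at 2537 against 4626, a log2 ratio of -1.03 (-1.100 to -0.96), while P-Nuc and KO-Nuc held 5044 and 4454 and differed by -0.06 (-0.12 to 0.00). The share of *EGFR* reads in the 3'UTR was therefore 31.9% (30.8 to 33.0%) in P-Cyt and 49.0% (47.6 to 50.4%) in KO-Cyt, against 11.8% and 12.4% in the nuclei. Over the whole library the shares were 31.6% and 47.4% in the cytoplasm, close to those of *EGFR*, and 5.35% and 5.43% in the nuclei. In *EGFR*, 2 loci annotated to a 3'UTR lay in introns of the canonical transcript.

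At the level of sites, the *EGFR* 3'UTR site shown, 2470 nt after the stop codon, had 536, 431 and 116 reads and no cluster in KO-Nuc. Of the 4 *EGFR* 3'UTR loci found in every library, not all of which are reported here, those at 4190 nt and 2254 nt had more reads in the cytoplasm, with 168, 238, 23 and 81 reads at the former and 91, 158, 10 and 44 reads at the latter. The intronic locus with the most reads showed the opposite order, since the intron 8 site had 47 and 32 reads in the cytoplasmic libraries and 274 and 144 in the nuclear ones. In all, 31 *EGFR* loci were found in every library, 4 of them in the 3'UTR and 27 in introns, and the intronic ones held between 57 and 497 reads.

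*SOS1* and *SOS2*, the exchange factors that activate RAS, carried 136 and 72 loci. *SOS1* (chr2:39189347-39351486, minus strand) gave 1444, 1233, 745 and 693 reads, or 260.1, 198, 211 and 213 RPM, so that no library was past 2-fold from another. The classes differed more. The 3'UTR held 463, 583, 0 and 36 reads, whereas the introns held 783, 361, 658 and 657 reads. The *SOS1* 3'UTR site, 2984 nt after the stop codon, accounted for most of the former with 308, 437, 0 and 15 reads. Coding sequence held 198 and 289 of the *SOS1* reads in P-Cyt and KO-Cyt, or 13.7% (12.0 to 15.6%) and 23.4% (21.2 to 25.9%). These shares were 2.04% and 2.29% for the 6 genes together, *SOS1* included, and 2.27% and 5.87% over the whole library. A single coding locus, chr2:39213014-39213066, had 134, 230, 69 and 0 reads. The intron 20 site was found in every library with 140, 89, 64 and 42 reads, and so was an intron 8 locus at chr2:39255418-39255449 with 11, 10, 17 and 25 reads.

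*SOS2* (chr14:50583848-50698296, minus strand) was highest in KO-Cyt, with 470, 1121, 217 and 296 reads, or 84.7, 180.3, 61.3 and 91.0 RPM. It was the only one of the 6 genes whose intronic reads were past 2-fold higher in KO-Cyt than in P-Cyt, at 1030 against 437, a log2 ratio of 1.07 (0.91 to 1.24). Of those in KO-Cyt, 676 reads (65.6%) lay in 1975 nt of introns 11 and 12, chr14:50622824-50624798, compared with 131 reads (29.98%) in P-Cyt and 13 and 41 reads in the nuclear libraries. Within that stretch, 11 loci had clusters, led by the intron 12 site with 62, 230, 0 and 0 reads. Without the stretch, which was singled out after its values were seen, the *SOS2* log2 ratio of KO-Cyt to P-Cyt was 0.23 over all reads and 0.05 over intronic reads. The 3'UTR of *SOS2* is short, and its leading site, 105 nt after the stop codon, had 33 and 91 reads in the cytoplasmic libraries and no cluster in the nuclear ones.

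*NRAS*, the RAS GTPase of the set (chr1:115247090-115259392, minus strand), differed most between libraries. It gave 2726, 11306, 137 and 100 reads, or 491, 1819, 38.7 and 30.7 RPM. KO-Cyt was thus 3.70-fold above P-Cyt and 59.2-fold above KO-Nuc, and P-Cyt was 12.7-fold above P-Nuc. Nearly all reads were in the 3'UTR, with shares of 99.6%, 99.8%, 92.7% and 100% (the last of 100 reads, 95% interval 96.3 to 100%). By 3'UTR reads *NRAS* ranked 96th of 6340 genes in P-Cyt and 15th of 6801 genes in KO-Cyt, but 315th of 3973 in P-Nuc and 385th of 4084 in KO-Nuc. The 3'UTR of its canonical transcript is 3625 nt long in 3 exons and held 20 of its 25 loci.

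The 4 leading *NRAS* sites differed from each other. Site a, 941 nt after the stop codon, had no cluster in P-Cyt but 4748 reads in KO-Cyt, 55 in P-Nuc and 16 in KO-Nuc. It was the largest cluster of any of the 6 genes in any library and supplied 42.0% of the *NRAS* reads in its library. Site b, 2596 nt after the stop codon, had 1169, 2142, 0 and 30 reads. Site c, at 1175 nt, was the *NRAS* locus found in every library, with 858, 1786, 53 and 47 reads, and site d, at 518 nt, had 258, 1770, 0 and 0 reads. KO-Cyt was therefore above P-Cyt at sites b, c and d too. Without site a, a choice made after its values were seen, the log2 ratio of KO-Cyt to P-Cyt was 1.103 in place of 1.889. A strong locus with no counterpart was not rare in these data: of the 3925 loci with at least 200 reads in KO-Cyt, 25.5% had no cluster in P-Cyt, as had 4 of the 15 such loci in the 6 genes, and the reverse held for 14.6% of 2424 loci. The share of site a reads with a T-to-C change was 44.1% in KO-Cyt, below the 59.0%, 63.0% and 61.4% of sites b, c and d.

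**Figure D2:**
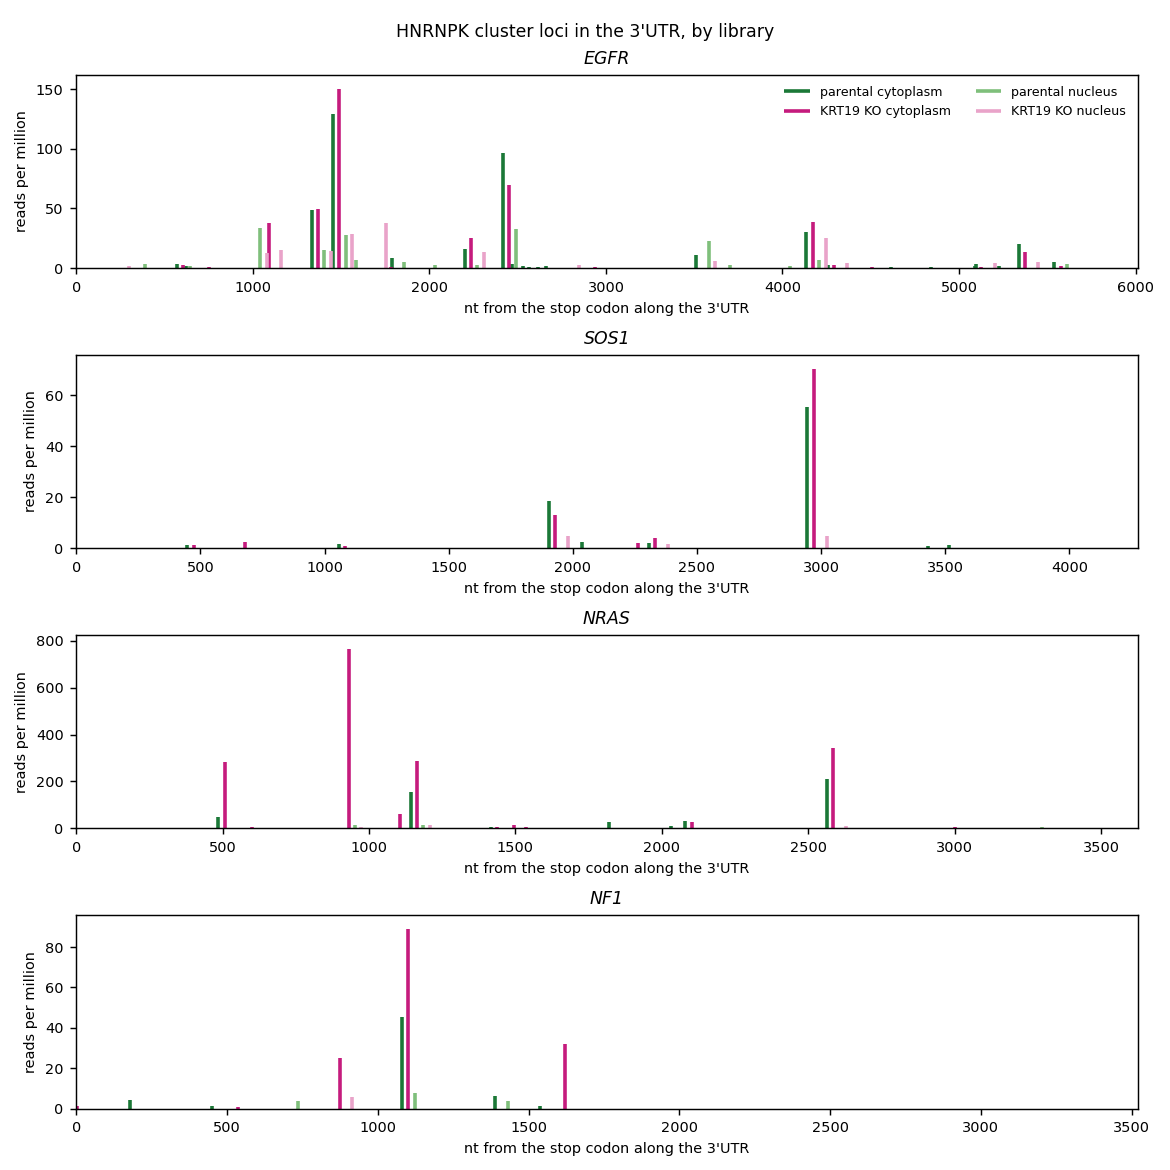
Cluster loci along the 3'UTR of the canonical transcripts of *EGFR*, *SOS1*, *NRAS* and *NF1* (x axis, nt after the stop codon, y axis, RPM on a linear scale of its own for each gene), with the 4 libraries drawn side by side at each locus, each offset slightly from the locus position. *NRAS* site a at 941 nt reached 764 RPM in KO-Cyt and had no cluster in P-Cyt.

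*NF1*, the GTPase-activating protein that restrains RAS (chr17:29421945-29709134, plus strand), carried 299 loci and gave 2323, 1767, 2153 and 1408 reads, or 418, 284, 609 and 433 RPM. The 3'UTR held 334, 923, 55 and 18 reads, a log2 ratio of KO-Cyt to P-Cyt of 1.30 (1.12 to 1.49). The introns held 1930, 734, 2044 and 1371 reads, a ratio of -1.56 (-1.68 to -1.43). Its 3'UTR and its introns thus differed in opposite directions between the cytoplasmic libraries. So did the medians over all genes tested, at 0.70 for 3'UTR reads and -0.76 for intron reads. The *NF1* 3'UTR site, 1112 nt after the stop codon, had 251, 552, 28 and 0 reads, and 2 further 3'UTR loci with 157 and 200 reads in KO-Cyt had no cluster in P-Cyt. Of its 6040 reads in introns of the canonical transcript, 2056 lay in intron 36 and 1484 in intron 1, which are 60480 and 60613 nt long. The 4 *NF1* loci found in every library were all intronic, in introns 1, 12, 13 and 36, and held between 61 and 120 reads in all. *NF1* has pseudogene copies elsewhere in the genome, so reads from shared exons may have been lost or misplaced.

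*BRAF*, the RAF kinase of the set (chr7:140419127-140624729, minus strand), carried 134 loci and gave 685, 423, 883 and 635 reads, or 123, 68.1, 249.6 and 195 RPM. All its reads in P-Cyt and KO-Nuc were intronic, and no cluster with its name was annotated to a 3'UTR in any library. The canonical transcript of the reference used here has a 3'UTR of 3932 nt, in which 29, 57, 33 and 23 reads lay in clusters that had been given no gene name, so that reads of this stretch are not in the *BRAF* totals. Over the whole gene such unnamed clusters held 204, 299, 33 and 97 reads, and with them *BRAF* was at 160.1, 116, 259 and 225.04 RPM. The intron 1 site was found in every library with 54, 17, 54 and 53 reads, as was a second intron 1 locus at chr7:140620103-140620132 with 32, 22, 19 and 10 reads. Coding clusters appeared in KO-Cyt (64 reads, 15.1%, 12.0 to 18.9%) and P-Nuc (5 reads). *BRAF* also has a pseudogene, so some of its exonic reads may have been placed there.

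Between KO-Cyt and P-Cyt, over all reads, 2 of the 6 genes were higher by at least 2-fold, *NRAS* at 1.89 (1.83 to 1.95) and *SOS2* at 1.09 (0.93 to 1.25) on the log2 scale, and none was lower. *EGFR*, *SOS1*, *NF1* and *BRAF* were at -0.62, -0.39, -0.56 and -0.86, the last at -0.46 with the unnamed clusters within the gene. Among the 11565 genes with at least 20 reads in this comparison, 22.2% were higher and 25.8% lower by that rule, and the median gene was at -0.11. The median of the 6 genes was -0.47. In the 3'UTR, 3 of the 5 genes with enough reads were higher, namely *NRAS* at 1.89, *SOS2* at 1.30 and *NF1* at 1.30, none was lower, and *SOS1* was at 0.17 (-0.01 to 0.35). Of 6058 genes 41.8% were higher and 15.8% lower in their 3'UTR reads, with a median of 0.70. In introns, 4 of the 6 genes were lower, *EGFR* at -1.03, *BRAF* at -1.095, *SOS1* at -1.28 and *NF1* at -1.56, and *SOS2* was higher at 1.07. Here 41.6% of 8042 genes were lower and 9.41% higher, with a median of -0.76. Relative to the median gene, *NRAS* was at 1.19 in the 3'UTR, *EGFR* at -0.70 in the 3'UTR and *SOS2* at 1.84 in introns. All 4 lower calls in introns and the higher call of *SOS2* were lost when only loci with a cluster in both libraries were counted, a setting chosen after the data were seen, and the 4 lower calls were also lost, at values between -0.68 and -0.15, when intron reads were scaled to all intron reads. The 3'UTR calls of *SOS2* and *NF1* were lost, at 0.72 each, when 3'UTR reads were scaled to all 3'UTR reads. That of *NF1* was also lost when only loci with a cluster in both libraries were counted.

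In the nucleus, between KO-Nuc and P-Nuc, none of the 6 genes was past 2-fold over all reads, with log2 ratios between -0.49 for *NF1* and 0.57 for *SOS2*, while 18.6% of 12045 genes were higher and 22% lower. In introns none of 5 genes was past 2-fold either, against 16.4% higher and 21.9% lower of 9398 genes. In the 3'UTR, *NF1* was lower at -1.49 (-2.35 to -0.70) on 55 and 18 reads. *SOS1*, with 36 reads in KO-Nuc and none in P-Nuc, was 13.1-fold higher against a floor of 3 reads for P-Nuc. Every deposited cluster held at least 5 reads, so the *SOS1* ratio is not a lower bound. Of 3274 genes 33% were higher and 28.3% lower in their nuclear 3'UTR reads. When unique reads were counted, *NF1* was no longer past 2-fold. *SOS1*, with 7 unique reads in KO-Nuc and none in P-Nuc, then had too few to be compared.

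**Figure D3:**
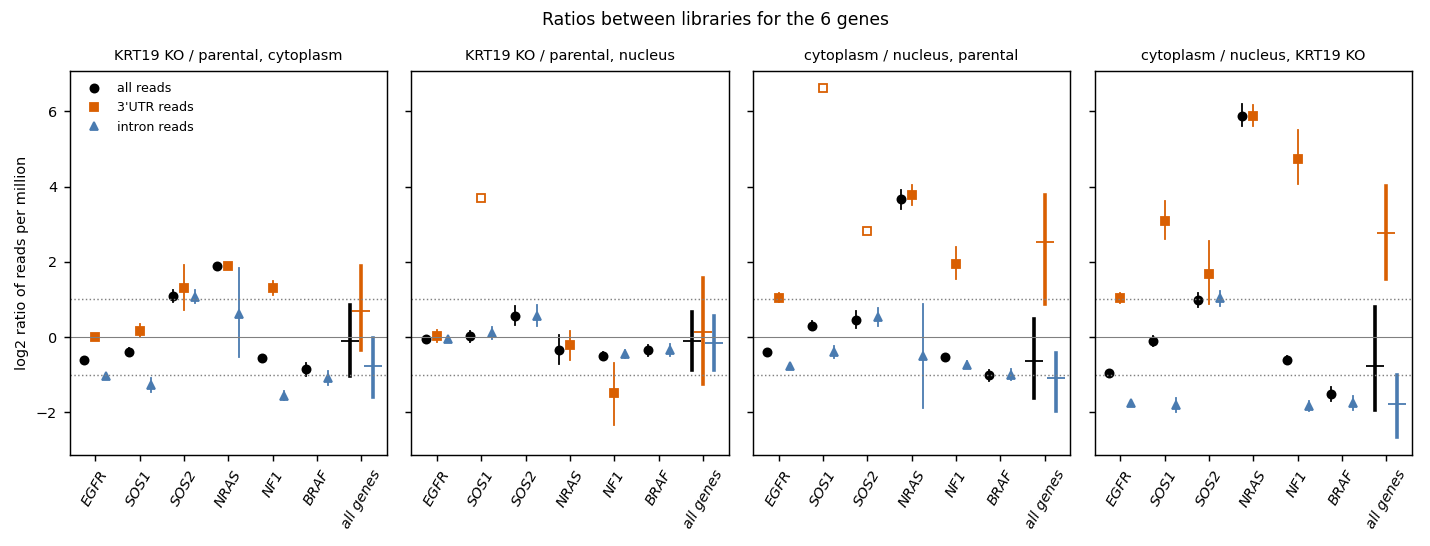
Log2 ratios of RPM (y axis) for each gene in the 4 comparisons (panels), over all reads, 3'UTR reads and intron reads, with 95% counting intervals as vertical lines and 2-fold as dotted lines. Open symbols are ratios in which a count of 0 was replaced by a floor of 3 reads. The last position gives the median and the quartiles of all genes tested, which lie above 0 for 3'UTR reads in both comparisons of cytoplasm with nucleus (medians 2.52 and 2.77).

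Between cytoplasm and nucleus, *NRAS* was higher and *BRAF* lower by at least 2-fold in both cell lines over all reads. The log2 ratios were 3.66 (3.42 to 3.92) in P and 5.89 (5.603 to 6.19) in KO cells for *NRAS*, at the 96.1st and 99.6th percentile of all genes, and -1.02 (-1.16 to -0.87) and -1.52 (-1.70 to -1.34) for *BRAF*. Of all genes 19.1% and 23.1% were higher in the cytoplasm, and 39.4% and 45.2% lower, with medians of -0.64 and -0.77, and *BRAF* stood at the 39.0th and 33.3rd percentile. Both *BRAF* calls were lost when the unnamed clusters within the gene were counted, a setting chosen after the data were seen, at -0.69 (-0.83 to -0.56) and -0.95 (-1.105 to -0.80), and with median-of-ratios size factors in place of total reads, at -0.45 and -0.84. In the 3'UTR all 5 genes with reads were higher in the cytoplasm in both cell lines (*SOS1* and *SOS2* in P cells against a floor of 3 reads for P-Nuc), as were 73.8% of 5026 and 80.1% of 5513 genes, while 10.1% and 6.69% were lower. *EGFR* had the smallest of these differences, at 1.05 (0.92 to 1.18) and 1.03 (0.90 to 1.16), which is 1.47 and 1.74 below the median gene. Both *EGFR* calls were lost with clusters of at least 10 reads and with at least 2 conversion locations, and the call in P cells also with unique reads. In the nuclei its 3'UTR ranked 15th of 3973 and 8th of 4084 genes by reads. Scaled to all 3'UTR reads, the *EGFR* 3'UTR was lower in the cytoplasm, at -1.52 and -2.10. So was that of *NF1* in P cells, at -0.61, and that of *SOS2* in KO cells, at -1.46. That of *SOS1* in KO cells then hardly differed between the fractions, at -0.042.

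In introns, in P cells, *BRAF* alone was past 2-fold lower in the cytoplasm, at -1.01 (-1.15 to -0.86), against 53.5% of 9151 genes, and none was higher, against 6.66%. In KO cells *EGFR*, *SOS1*, *NF1* and *BRAF* were lower at values between -1.84 and -1.75, against 75.4% of 8533 genes and a median of -1.77. Scaled to all intron reads, these 4 calls were lost, at values between -0.46 and -0.37, and so was that of *BRAF* in P cells, at -0.35, which was also lost with size factors, at -0.45, with the total without mitochondrial clusters and the top cluster, at -0.93, and over loci found in both libraries, at -0.70. The intronic reads of *SOS2* were higher in the cytoplasm of KO cells at 1.04 (0.84 to 1.24), a call that 3.84% of genes shared, at the 96.2nd percentile. Without the stretch in introns 11 and 12 it was at -0.26.

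Of the 1136 loci, 785 (69.1%) were found in 1 library and 40 (3.52%) in all 4, compared with 77.4% and 1.68% of all 592021 loci. Those 40 loci held 22.5% of the reads of the 6 genes. Among the 181 loci with at least 50 reads over the 4 libraries 9.39% were found in 1 library and 22.1% in all 4, against 10.6% and 17.0% of 55023 loci of that depth. *EGFR* supplied 31 of the 40, and *SOS2* none. Of the 470 *EGFR* loci 44.5% were found only in nuclear libraries and 27.4% only in cytoplasmic ones, compared with 44.7% and 39.0% of all loci. Of the 25 *NRAS* loci 76% were found only in cytoplasmic libraries, near the 70.0% of all 3'UTR loci, and of the 72 *SOS2* loci 54.2%. P-Cyt and KO-Cyt shared 136 of the 1136 loci of the 6 genes, and P-Nuc and KO-Nuc shared 123, compared with 51297 and 37938 of all 592021 loci. Among loci with at least 50 reads the counts were 87 and 82 of 181, compared with 28330 and 20424 of 55023.

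**Figure D4:**
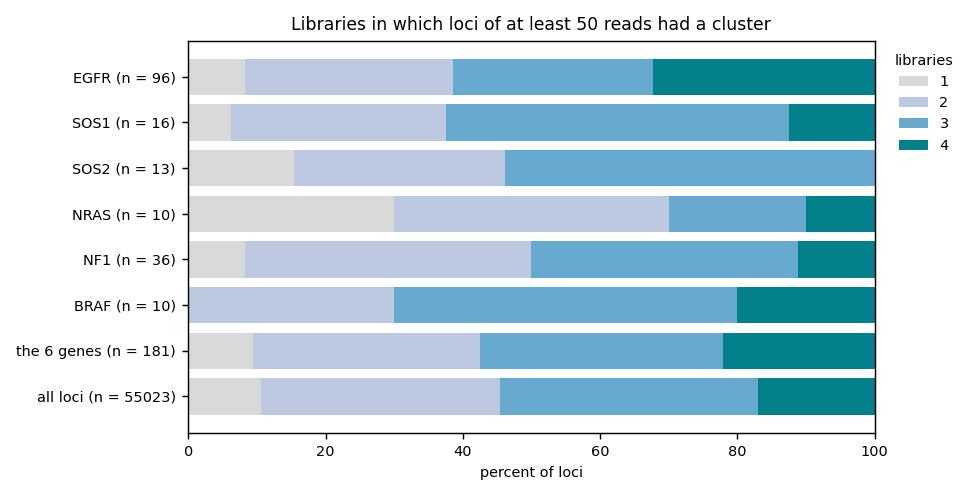
Share of loci with at least 50 reads over the 4 libraries (x axis, percent) that had a cluster in 1, 2, 3 or 4 libraries, for each gene, for the 6 genes together and for all loci, with the number of loci in parentheses. The share found in all 4 libraries was highest for *EGFR* (32.3%) and lowest for *SOS2* (0 of 13 loci).

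The motif CCC, 3 C in a row read on the transcript strand only, was in 413 of the 1136 windows of 30 nt, a share of 36.4% (33.6 to 39.2%), and in 21.9% of windows shifted by 100 nt to either side. Over all loci these shares were 39.1% and 24.6%. *EGFR* had the highest share, 41.1% (36.7 to 45.6%) against 26.4% in its flanks, and the SOS genes, *NF1* and *BRAF* lay between 30.6% and 35.8%. *NRAS* had the lowest share with 4 of 25 windows, 16% (6.40 to 34.7%), against 18% in its flanks, and in its 3'UTR 2 of 20 windows held CCC. TCCC, a longer motif that holds CCC, was in 22.8% of the windows of the 6 genes and 25.3% of all windows. The windows were poor in G, with 11.6% G and 34.4% T over the 6 genes against 19.4% G and 32.0% T in the flanks, much as over all loci, at 11.3% G and 34.3% T against 20.1% and 31.5%. No G at all was held by 14.9% of the *BRAF* windows and 8.90% of all windows.

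**Figure D5:**
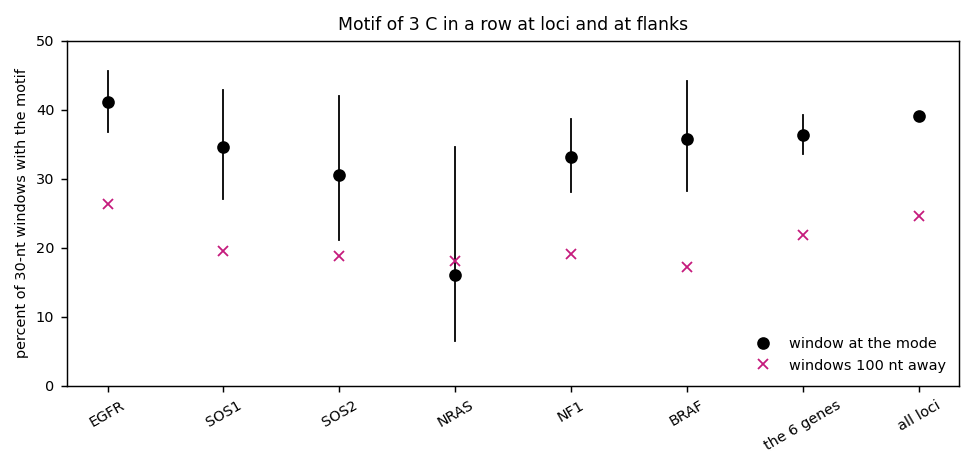
Percent of windows of 30 nt that held CCC (y axis), around the position of highest cluster signal with its 95% Wilson interval and in windows 100 nt away on either side. The share at loci was above that of the flanks for each gene but *NRAS*.

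The T-to-C share, the percent of reads with such a change, was 64.5%, 58.7%, 71.3% and 73.1% over the 6 genes, each below the whole library, at 66.4%, 59.6%, 72.9% and 76.7%. The share differed by class, since intron reads of the 6 genes stood at 67.5% and 67.3% in the cytoplasmic libraries and 3'UTR reads at 60.1% and 55.8%. Over the whole cytoplasmic libraries, intron reads were above these values, at 74.3% and 68.0%, but 3'UTR reads were below them, at 53.4% and 55.1%. In the nuclear libraries the 6 genes were below the whole library in both classes. The part of class in the differences between libraries was not tested.

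Of 49 further genes of the pathway, ligands, receptors, adaptors, RAS GTPases, exchange factors, GTPase activators and kinases, 46 had at least 1 cluster. Between KO-Cyt and P-Cyt 6 were higher and 14 lower among 38 with at least 20 reads, at a median of -0.38, against 22.2% higher and 25.8% lower of all genes. Both *TGFA*, a ligand of EGFR, and *RRAS2* had all their reads, 942 and 899, in P-Cyt, where all 28 and all 42 of their loci formed unbroken runs found in no other library, so their ratios are not read as differences, and without them 12 of 36 genes were lower, at a median of -0.23. Between KO-Nuc and P-Nuc 4 of 41 genes were higher and 9 lower, against 18.6% and 22% of all genes. In both fractions 1 of 35 genes was higher and 2 were lower, against 6.42% and 7.2% of 10022 genes. *SPRY2*, a feedback inhibitor of the route, had 0, 387, 6 and 27 reads and so was higher in KO than in P in either fraction. *RASA1*, a GTPase activator, had 1112, 376, 1056 and 299 reads and was lower in both, at log2 ratios of -1.73 and -1.70. *KSR1*, a scaffold of the RAF cascade, was lower in both as well, at -3.23 and -1.29.

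Between fractions, of 39 genes of that list with enough reads, 7 were higher in the cytoplasm in both cell lines and 10 lower, 17.9% and 25.6%, against 12.2% and 25.1% of 10389 genes. Those higher included the ligands *EREG* and *HBEGF*, the adaptor *GRB2*, the ubiquitin ligase *CBL*, the inhibitor *SPRED1* and the scaffold *SHOC2*. *EREG* had the most reads of them, with 7063, 18207, 1040 and 286. Those lower included the receptors *ERBB2*, *ERBB3* and *ERBB4*, *LRIG1*, *MRAS*, *RASGRP3*, *RASGRF2*, *RASA3* and *MAP2K2*, of which the receptors had at most 26 reads in a cytoplasmic library. The list genes with the most loci were *RASAL2* with 585, *SPRED2* with 153 and *SPRED1* with 146, and *RASA1* had 111.

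The gene closest in level to each member, by the distance of log2(RPM + 1) over the 4 libraries among 9741 other genes with at least 100 reads, was *EIF1* for *NRAS* (distance 0.94), *RNU4-1* for *EGFR* (0.56), *SLMAP* for *NF1* (0.31), *TOMM20* for *SOS2* (0.31), *MARCH6* for *SOS1* (0.28) and *ADAMTS16* for *BRAF* (0.18). *NRAS* was the farthest from its nearest gene, and *EIF1* stood at 615, 1543, 67.6 and 38.4 RPM. These distances describe likeness of level only.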

How the data were processed

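HNRNPK PAR-CLIP clusters of 4 libraries, 1 per condition, were analysed. According to the methods of the study, reads were demultiplexed with bcl2fastq (version 2.20.0 in the submitters' processing notes) and cutadapt, identical sequences were collapsed before adapters and molecular identifiers were removed, reads were aligned to hg19, and clusters were called with PARalyzer and annotated with PARpipe. For each cluster, the authors deposited whole-number counts of its reads, its unique reads, its conversion locations and its T-to-C reads, which were not normalized. The deposited fraction, score and log10 values of the clusters played no part here. The processing notes name hg38, but the sequence of all 1657 clusters of the 6 genes was equal to GRCh37 at the deposited positions.

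The members and all gene lists were chosen with earlier results of these data known. Reads were summed by gene name and annotation class and divided by the reads of all clusters of the library. A gene was compared where the 2 libraries together held at least 20 reads, and called at 2-fold. A count of 0 was replaced by a floor of 3 reads. Intervals of ratios are exact binomial and those of shares Wilson intervals, at 95%. Positions along transcripts refer to the canonical (MANE Select) models of GENCODE v44 lifted to GRCh37. Named were the 6 genes, per gene the 3'UTR and intronic locus with the most reads, loci found in all 4 libraries, the pathway genes past 2-fold in the same direction in both matching comparisons, the 5 of them with the most loci, and the nearest gene by level. Some loci and genes that this rule covers are not reported here. Locus joining and ratios were tested on simulated data. Alternatives covered unique reads, at least 10 reads or 2 conversion locations per cluster, other scalings, 1.5-fold, at least 50 reads per gene, unnamed clusters within the genes, stricter overlap and other motif settings. Python 3.11.15, numpy 2.4.6, pandas 2.3.3, scipy 1.17.1, pysam 0.24.0 and matplotlib 3.10.9 were used.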

Additional observations from a re-analysis of the deposited data

Results flagged for a closer look

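Some log2 ratios were opposite in sign between matching comparisons, and none of these differences was tested, since each condition was 1 library. *NRAS* stood at 1.89 between *KRT19* KO and parental cells in the cytoplasm and at -0.33 in the nucleus over all reads, and at 1.89 and -0.22 over 3'UTR reads, with only 137 and 100 reads in the nuclear libraries. *NF1* 3'UTR reads stood at 1.30 in the cytoplasm and -1.49 in the nucleus, the latter on 55 and 18 reads. *SOS1* stood at -0.39 in the cytoplasm and 0.017 in the nucleus over all reads and at -1.28 and 0.12 over intron reads, and between cytoplasm and nucleus at 0.30 in parental and -0.10 in *KRT19* KO cells, where the intervals around 0.017, 0.12 and -0.10 included 0.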

How the results depend on the processing

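Counts of called genes are given as higher or lower by at least 2-fold, with C for KO against P in the cytoplasm, N for the same in the nucleus, P for cytoplasm against nucleus in parental cells and K for that in *KRT19* KO cells. At 1.5-fold, C had 2 lower, K 2 higher and 3 lower over all reads, and C 2 higher and P 3 lower over intron reads. With unique reads, K had 2 higher over all reads, and over 3'UTR reads N had 0 higher and 0 lower and P 3 higher, while the 3'UTR shares of the 6 genes were 41.9%, 74.9%, 10.3% and 10.9% in place of 39.5%, 73.5%, 8.69% and 9.71%. With at least 50 reads per gene, N had 0 higher over 3'UTR reads. Counting clusters in place of reads gave 3'UTR shares of 10.6%, 13.2%, 4.80% and 5.91%. With clusters of at least 10 reads, C had 1 lower and K 2 higher and 2 lower over all reads, 439 in place of 785 loci were found in 1 library, 3'UTR shares were 42.4%, 76.5%, 9.52% and 10.7%, and T-to-C shares 61.9%, 57.3%, 68.3% and 69.6%. With at least 2 conversion locations, over all reads N had 1 higher, P 2 higher and K 2 higher and 2 lower, over 3'UTR reads N had 0 higher and 0 lower, over intron reads N had 1 higher and P 1 higher and 2 lower, 302 loci were found in 1 library, and T-to-C shares were 61.8%, 57.9%, 65.6% and 68.3%. With size factors, P and K each had 2 higher and 0 lower over all reads, and over intron reads C had 2 lower and P 1 higher and 0 lower. Without mitochondrial clusters and the top cluster in the total, P had 0 lower and K 2 higher over all reads and P 0 lower over intron reads. Scaled to the total of the class, over 3'UTR reads C had 1 higher, P 2 higher and 1 lower and K 2 higher and 2 lower, with *EGFR* at -1.52 in P and -2.10 in K, *NF1* at -0.61 in P, and *SOS1* and *SOS2* at -0.042 and -1.46 in K, and over intron reads C had 2 higher and 0 lower, P 1 higher and 0 lower and K 0 lower. With TCCC, 22.8% of windows held the motif. The next 4 settings were chosen after seeing the data. With only loci found in both libraries, over all reads C had 1 higher, P 0 lower and K 2 higher, over 3'UTR reads N had 0 higher and 0 lower and P 3 higher, and over intron reads C had 0 higher and 0 lower, P 0 lower and K 0 higher, with *SOS2* at -0.31 in K. Without the *SOS2* stretch, C had 1 higher over all reads and 0 higher over intron reads and K 0 higher over intron reads, with *SOS2* at -0.26. Without *NRAS* site a no count changed. With unnamed clusters within the genes, P and K each had 0 lower over all reads. *NRAS* in C over all reads was between 1.085 and 2.11 in the 7 settings that gave it a value. Causes were not tested. No paired analysis was possible because the results come from no test and the PAR-CLIP libraries carry no replicate numbers. Low counts limit the nuclear 3'UTR values.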
